A study of Mus musculus with 12 samples.

Results

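Open chromatin was compared between lincRNA-EPS knockout (KO) and wild-type (WT) macrophages after 2 h of lipopolysaccharide (LPS). The comparison used 4 of the 12 ATAC-seq libraries of the series, 2 per genotype. All groups are bone marrow-derived macrophages of female C57BL/6 mice, grown for 9 days with 20% L929 growth supplement, and both groups compared received LPS at 100 ng/ml. The labels give no knockout allele, age or number of mice. The origin of the 2 libraries of each group, as separate mice, cultures or repeats of 1 preparation, is not stated either, so every spread and p-value below measures differences between libraries that may be technical. The deposited peaks of these 4 libraries carry names that read 1 h, whereas their labels read 2 h. The labels were followed, and the time called 2 h may therefore be 1 h.

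ATAC-seq uses the Tn5 transposase, which inserts adapters where DNA is not covered by nucleosomes, so that a peak of reads marks an open promoter or enhancer. LPS is a component of the outer membrane of Gram-negative bacteria. It is sensed by Toll-like receptor 4 on macrophages, and within hours factors such as NF-kB and interferon regulatory factors open enhancers and switch on cytokine and antiviral genes. LincRNA-EPS is a long intergenic noncoding RNA of erythroid cells and macrophages, and the series' title describes it as a brake on inflammatory genes. The comparison asks where chromatin is open in macrophages of one genotype and not of the other early in the LPS response.

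The authors called peaks in each library separately. The 4 lists held 287106 peaks on the 19 autosomes. Peaks that overlapped by 1 bp or more were chained into 87928 regions, and each library either had a peak in a region (called it) or had none. A region was KO only when both KO libraries and neither WT library called it, and WT only in the reverse case. The 4 libraries can also be divided into other sets of 2, each with 1 KO and 1 WT library. These mixed pairings were counted by the same rule and are given beside each count, as values without a test. All coordinates are of the mm9 build. Gene annotation and sequence of that build were not used here, so regions are named by position, and macrophage markers and the lincRNA-EPS gene itself were not analysed here.

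The lists were of similar size and came from libraries of unequal depth. The autosomal lists held 75167 peaks in WT replicate 1, 68581 in WT replicate 2, 70856 in KO replicate 1 and 72502 in KO replicate 2. Background coverage, recovered from the deposited fold and p of each peak, was 3.03, 2.32, 2.79 and 3.04 reads in the same order, so the shortest list belonged to the shallowest of the 4 libraries. Mean peak number was 71679 ± 1164 in KO and 71874 ± 4657 in WT (SD, n = 2 each), a difference of -195 (exact two-sided permutation test, p = 1). The peaks covered 37.6 ± 1.07 Mb in KO and 38.2 ± 3.01 Mb in WT (exact two-sided permutation test, p = 1). With 2 libraries against 2 the smallest p that this test can give is 0.333. The direction of both differences rested on single libraries. Without WT replicate 1, KO exceeded WT by 3098 peaks and 1.46 Mb, and without KO replicate 1 by 628 peaks and 0.0853 Mb.

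Most open chromatin was called in both genotypes. All 4 libraries called 55656 regions (63.3%), 3 called 8521, 2 called 8742 and 1 called 15009. KO only were 1416 regions (1.61% of all regions) and WT only were 1524 (1.73%), which makes 2940 regions (3.34%) that separated the genotypes. The mixed pairings separated about as many. KO replicate 1 with WT replicate 1 shared 1761 regions (2.0%) that the other libraries lacked, and KO replicate 2 with WT replicate 2 shared 990 (1.13%), 2751 in all. KO replicate 2 with WT replicate 1 shared 2239 (2.55%), and KO replicate 1 with WT replicate 2 shared 812 (0.923%), 3051 in all. The total for genotype thus lay between the totals of the mixed pairings. Of the regions separated by genotype 51.8% were WT only, whereas the larger list took 64.0% and 73.4% of the regions in the mixed pairings.

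**Figure D1:**
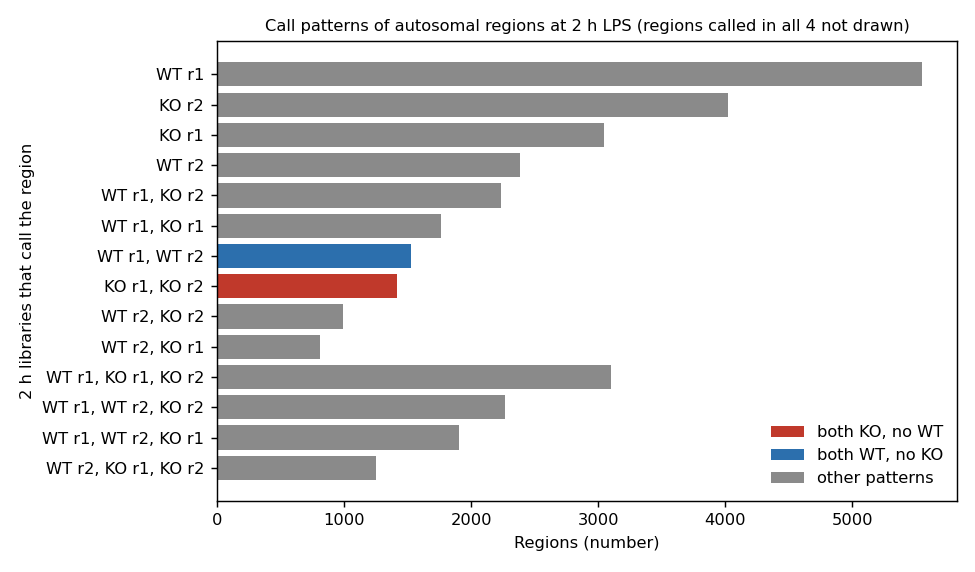
Number of autosomal regions (horizontal axis) for each set of 2 h libraries that called them (vertical axis), with regions called in all 4 left out. The 1416 KO-only (red) and 1524 WT-only (blue) regions lie within the range of the mixed sets of 2 libraries, 812 to 2239 (grey).

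The shares of regions in common were likewise close when the libraries were taken 1 pair at a time. The WT libraries shared 77.2% of the regions that either called, and the KO libraries 78.3%. A WT and a KO library shared 77.5%, 77.5%, 77.6% or 78.3%, so libraries of the same genotype did not share more than those of different genotype. These shares also depend on list length, and the WT libraries had the longest and the shortest of the 4 lists. Over the 55656 regions called in all 4, the Spearman correlation of −log10 q was 0.921 between the WT libraries, 0.922 between the KO libraries and 0.914 to 0.920 across genotypes. Both correlations within a genotype thus lay slightly above those across genotypes, which was not tested. These correlations are across regions, which are not independent replicates.

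The counts were repeated in lists matched for length or depth. With every list cut to its 68581 strongest peaks, KO only numbered 1431 and WT only 1445, or 2876 in all, above the mixed pairings at 2558 and 2660. With peak coverage thinned at random until all 4 libraries had the lowest background among them, they numbered 1369 and 1571, or 2940 in all, above the mixed pairings at 2758 and 2905. Thinned further, to the lowest background of all 12 libraries, they numbered 1269 and 1934 of 80669 regions. This made 3203 in all, of which 60.4% were WT only, and the mixed pairings gave 2762 and 2886. Thus the total for genotype stood between the mixed pairings in the deposited lists and above both in the lists matched for length or depth. Each thinning was a single random draw. The total was also above both at a −log10 q of at least 5 without matching, at 2829 against 2605 and 2715. It stayed between them with an overlap of at least 100 bp, summit windows, the X chromosome included or chaining over all 12 lists. The balance between KO only and WT only depended on the depth chosen.

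The regions of either list were weak. The strength of a peak was taken as the percentile of its −log10 q within its own list, and that of a region as the mean over the libraries that called it. The median was the 15.2 percentile for KO-only regions and the 14.6 percentile for WT-only regions, against 13.5 to 15.3 for the 4 mixed lists and 60.1 for regions called in all 4. Median summit coverage was 19 reads in KO-only and 18.5 reads in WT-only regions, against 47.8 reads in regions called in all 4. The median fold over local background, which is the authors' value for each peak, was 4.35 and 4.47 against 7.10. The regions were also narrow, with a median of 330 bp for KO only and 327.5 bp for WT only, against 624 bp for regions called in all 4. The median was 318 to 332 bp in the mixed lists and 382 bp in regions called in 3 of 4. A region spans all peaks chained into it, so its width also depends on how many libraries called it. The separated regions therefore came mostly from near the calling limit, as did those of the mixed pairings.

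Few regions stood out from this. Both calls lay above the 50th percentile in 1 KO-only and 2 WT-only regions, in 0 regions of all 4 mixed lists, and in 52.8% of regions called in all 4. The strongest region of any mixed list had a mean percentile of 52.4. These 3 regions were the only ones of the separated regions above it, at 62.7 in KO only and at 91.6 and 80.4 in WT only. Regions called in 1 of 4 libraries reached 60.8 and those called in 3 of 4 reached 55.0. The KO-only region at 62.7 thus stood only slightly above these.

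**Figure D2:**
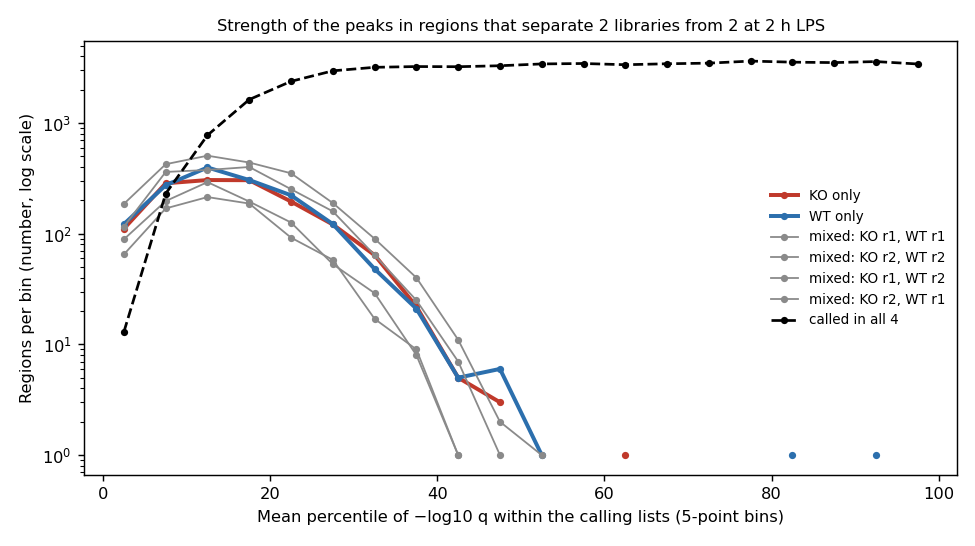
Number of regions (vertical axis, log scale) by mean percentile of −log10 q within the calling lists, in bins of 5 points (horizontal axis). KO-only (red), WT-only (blue) and the 4 mixed lists (grey) all fall off steeply, while regions called in all 4 (dashed) reach the top bin. One KO-only region at 62.7 and the WT-only regions at 80.4 and 91.6 lie beyond the highest mixed region, at 52.4.

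The libraries that did not call a region rarely had a peak beside it. The nearest peak of a non-calling library was a median of 4545.5 bp away for KO-only and 4458 bp for WT-only regions. It lay within 500 bp for 159 KO-only (11.2%) and 167 WT-only regions (10.96%), against 10.6% to 15.4% in the mixed lists. The regions were spread over the genome. KO-only regions made up 1.27% to 1.95% of the regions of each autosome and WT-only regions 1.51% to 2.28%. Chromosome 4, which carries the lincRNA-EPS gene in the mouse, held 88 KO-only and 87 WT-only of its 5240 regions. The longest run of neighbouring regions of the same kind was 3, and 178 KO-only (12.6%) and 179 WT-only regions (11.7%) had another of their kind within 50000 bp.

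The strongest WT-only region lay on chromosome 5 at 110425056 to 110425942. It stood at the 91.2 and 91.9 percentile in the WT libraries at 2 h, with 91 and 83 reads at the summit and a fold of 13.4 ± 0.21 (SD, n = 2). The libraries of the other times, which the choice of the region did not use, gave the same division. At 0 h the WT percentiles were 91.5 and 91.8, those at 6 h were 89.7 and 94.5, and 0 of the 6 KO libraries called it. The nearest KO peak at 2 h was 3565 bp away, in a region at 110429507 to 110429706. That neighbour was called in KO replicate 1 at 2 h (percentile 9.996), in both KO libraries at 6 h (61.0 and 69.5) and in 1 WT library, WT 6 h replicate 1 (34.4).

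The WT-only region next in strength lay on chromosome 6 at 144865555 to 144866152. Its percentiles at 2 h were 85.4 and 75.4 in WT, with a fold of 12.5 ± 1.61 (SD, n = 2). The WT percentiles were 79.1 and 80.5 before LPS and 82.6 and 85.0 at 6 h, and 0 of the 6 KO libraries called it. The strongest KO-only region lay on the same chromosome nearby, at 144882287 to 144882705. Its nearest WT peak at 2 h was 16135 bp away. In it the KO libraries stood at 53.0 and 72.5 at 2 h, with 30 and 45 reads at the summit and a fold of 9.78 ± 2.26 (SD, n = 2). None of the 4 libraries called it at 0 h. By 6 h it was present in all 4, at 91.3 and 82.3 in KO and at 47.1 and 54.1 in WT, so that the genotypes did not overlap at that time either. A region on the far side, at 144850416 to 144851806, was called in all 12 libraries, at percentiles of 95.2 to 99.3.

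The other 8 of the 10 strongest WT-only regions had mean percentiles of 43.9 to 50.4. On chromosome 8 at 115450629 to 115451309, WT stood at 60.8 and 35.2 at 2 h, at 74.0 and 15.7 at 0 h and at 68.7 and 56.7 at 6 h. On chromosome 5 at 136917468 to 136917864, WT stood at 49.7 and 38.2 at 2 h, and 3 of the 4 WT libraries of the other times called it. In both regions 0 of 6 KO libraries had a peak. The remaining 6 were each called in at least 1 KO library at another time. The region on chromosome 19 at 46802858 to 46803254, for instance, was at 54.8 and 46.1 in WT at 2 h and at 67.3 and 48.9 in KO at 6 h, and a KO peak at 2 h lay 89 bp from it. Of the 10, 7 had more calls in the other WT libraries than in the other KO libraries, and 3 had fewer. In the complete WT-only list these shares were 40.6% and 21.2%.

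All 10 of the strongest KO-only regions were called in both KO libraries at 6 h, and 6 of them in both WT libraries at 6 h. Of all regions, the KO libraries at 6 h called 83.5% and 74.6%, and the WT libraries 77.2% and 78.8%. After the leading region, their mean percentiles were 40.0 to 47.0. Of the 10, 4 had no call at 0 h and 4 calls at 6 h, against 0 of the 10 strongest WT-only regions. Besides the region on chromosome 6 at 144882287 these were the following 3. On chromosome 2 at 31388397 to 31388980, KO stood at 42.3 and 43.2 at 2 h, and at 6 h KO stood at 79.9 and 70.2 and WT at 56.7 and 67.5. On chromosome 6 at 87214946 to 87215388, KO stood at 36.8 and 45.5 at 2 h, and at 6 h KO stood at 84.2 and 84.6 and WT at 84.8 and 79.9. On chromosome 18 at 62168595 to 62169020, KO stood at 36.8 and 43.2 at 2 h, and at 6 h KO stood at 74.3 and 80.0 and WT at 78.1 and 83.6. In the regions at 87214946 and 62168595 the genotypes thus differed in calls at 2 h and overlapped in strength at 6 h, while at 31388397 both KO libraries stayed above both WT libraries.

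The remaining 6 were each called in at least 1 library at 0 h. The region on chromosome 11 at 53953874 to 53954291, at 42.3 and 40.8 in KO at 2 h, had a WT peak 49 bp away at that time and was called in both WT libraries at 0 h. None of the 10 was free of calls in the 4 other WT libraries, whereas 4 of the 10 strongest WT-only regions had 0 calls in the 4 other KO libraries. The difference between these counts was not tested, and the strongest regions of the mixed lists were not examined in this way. The shares of all regions without such calls are not given here. Background coverage at 0 h was 1.77 and 1.43 reads in the KO libraries and 2.35 and 2.51 reads in the WT libraries. The part of depth in these counts was not tested.

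**Figure D3:**
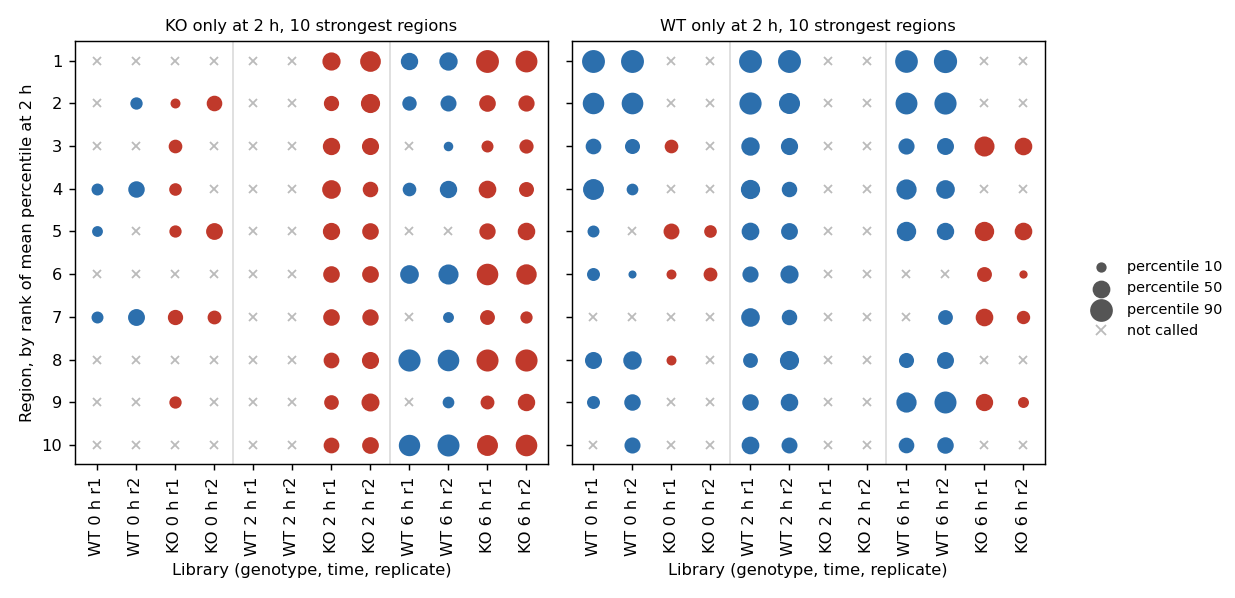
Percentile of −log10 q within each list (dot area) in all 12 libraries (horizontal axis, by time and genotype) for the 10 strongest KO-only (left) and WT-only (right) regions at 2 h, ranked by mean percentile (vertical axis). Crosses mark libraries without a call. The leading WT-only regions are blue at all times with no KO call, while all 10 KO-only regions have KO calls at 6 h and 4 appear with LPS in both genotypes.

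Some regions kept their genotype at the other times. Of the KO-only regions, 9 were called in at least 3 of the 4 other KO libraries and 0 of the 4 other WT libraries, and 10 had the opposite pattern. Of the WT-only regions, 28 were called in at least 3 of the 4 other WT libraries and 0 of the 4 other KO libraries, and 7 had the opposite pattern. In the mixed lists of 812 to 2239 regions, 3 to 17 regions had the pattern of KO calls and 7 to 25 that of WT calls. The 9 of 1416 KO-only regions thus lay within the numbers of the mixed lists. The WT pattern was found in 28 of 1524 WT-only regions. In the mixed lists it was found in 25 of 2239, 17 of 1761, 11 of 990 and 7 of 812. Its share was thus highest in the WT-only list as deposited, which was not tested. In lists thinned to the lowest background of all 12 libraries it was found in 32 of 1934 WT-only and 21 of 1269 KO-only regions. The thinned mixed lists held it in 22 of 1555, 18 of 1207, 13 of 1402 and 14 of 1484. At that depth the shares of the WT-only and KO-only lists were about equal.

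The 9 KO-only regions had mean percentiles of 1.39 to 34.7 at 2 h and mean folds of 2.49 to 6.00. The first lay on chromosome 5 at 69126507 to 69126861. It stood at 33.8 and 35.6 in KO at 2 h, at 16.997 and 12.6 at 6 h and at 8.85 in KO 0 h replicate 1, and its nearest WT peak at 2 h was 372075 bp away. None of the 9 was called in more than 1 KO library at 0 h except the one on chromosome 9 at 106220398 to 106220840, at 12.2 and 4.22. KO 0 h replicate 2 was the shallowest library of the series, with a background coverage of 1.43 reads, and the part of its depth in these counts was not tested.

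One of the 9 lay on chromosome 4 at 109073854 to 109074543. It was called in 5 of 6 KO libraries, at 15.9 and 20.7 at 2 h, 27.0 in KO 0 h replicate 1 and 35.2 and 33.8 at 6 h, and in 0 of 6 WT libraries. The next region, at 109078535 to 109079980, was 3992 bp away and was called in all 12 libraries with the genotypes apart at each time. It stood at 84.7 and 89.3 in WT and 67.9 and 63.8 in KO at 2 h, at 91.4 and 92.8 in WT and 58.7 and 65.5 in KO at 0 h, and at 80.7 and 77.1 in WT and 52.3 and 60.0 in KO at 6 h. This neighbour was looked at after the KO-only region had been found, so its values are a description. Chromosome 4 carries the lincRNA-EPS gene, and the position of both regions relative to that gene was not examined here.

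The 10 strongest of the 28 WT-only regions had mean percentiles of 26.7 to 91.6 and mean folds of 3.88 to 13.4. They include those on chromosomes 5, 6, 8 and 5 at 110425056, 144865555, 115450629 and 136917468 described above. The next lay on chromosome 6 at 3376876 to 3377538, where WT stood at 43.8 and 41.1 at 2 h, 25.7 and 53.1 at 0 h and 58.7 and 12.3 at 6 h, and 0 of 6 KO libraries had a peak. The highest mean percentile among WT-only regions that kept their genotype was thus 91.6, against 34.7 among the KO-only ones. These are the heads of lists of 28 and 9 regions, and a longer list can reach a higher maximum. The difference was not tested.

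The calls at the other times, which the choice of regions did not use, were examined for the complete lists. Of the 1416 KO-only regions, the WT libraries called 25.3% and 25.3% at 0 h, and at 6 h 55.5% and 59.5%. The KO libraries called 28.1% and 12.2% at 0 h, and at 6 h 69.4% and 52.2%. The genotypes overlapped at both times. Of the 1524 WT-only regions, the WT libraries called 35.8% and 38.6% at 0 h, and at 6 h 50.3% and 54.9%. The KO libraries called 28.9% and 12.9% at 0 h, and at 6 h 62.2% and 44.0%. For these regions both WT libraries lay above both KO libraries at 0 h, while the genotypes overlapped at 6 h. Neither the order at 0 h nor the larger shares at 6 h were particular to these lists. Over all regions the shares were 70.3% and 69.9% in WT and 68.1% and 58.0% in KO at 0 h, and 74.6% to 83.5% at 6 h, and 3 of the 4 mixed lists also had both WT libraries above both KO libraries at 0 h.

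Since depth differed between these libraries, the lists were compared within each library. The share of KO-only regions called minus that of WT-only regions averaged -0.704 points in KO and -11.9 points in WT at 0 h, a difference of 11.2 points with no overlap of the libraries. At 6 h it averaged 7.72 points in KO and 4.90 in WT, a difference of 2.82 points, again with no overlap. The mixed pairings gave -3.74 and 1.88 points at 0 h and 1.44 and 0.251 points at 6 h. The libraries did not overlap for the first of these values either, so a lack of overlap also arose in a mixed pairing. In lists thinned to the lowest background coverage of all 12 libraries the difference was 8.97 points at 0 h without overlap and 0.0626 points at 6 h with overlap. The 2 h lists thus differed between the genotypes in the libraries at 0 h, where the WT libraries called more of the WT-only than of the KO-only regions, and a difference at 6 h was not detectable at matched depth.

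**Figure D4:**
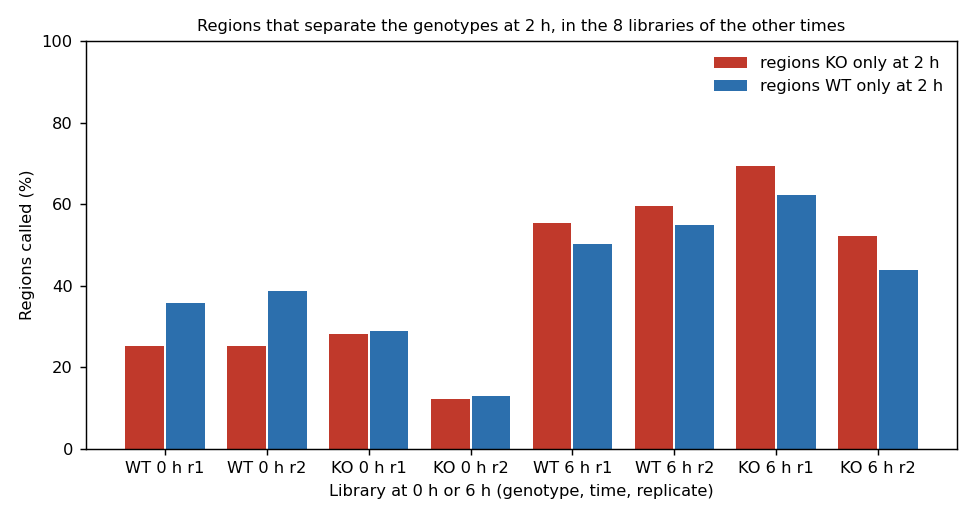
Share of the regions that were KO only (red) or WT only (blue) at 2 h called in each library at 0 h and 6 h (percent). In the WT libraries at 0 h the WT-only bars (35.8% and 38.6%) stand above the KO-only bars (25.3% and 25.3%), in the KO libraries at 0 h the bars are nearly equal, and at 6 h the KO-only bars are the taller in all 4 libraries.

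Taken by region, 397 KO-only regions had more calls in the 4 other KO libraries than in the 4 other WT libraries and 413 had fewer. Of the WT-only regions, 323 had more KO calls and 618 more WT calls. The mean share called was 40.5% in the other KO and 41.4% in the other WT libraries for KO-only regions, a difference of -0.918 points. For WT-only regions it was 37.0% and 44.9%, a difference of -7.94 points, and the mixed lists gave -2.27 to -4.27 points. Both lists thus lay outside the range of the mixed lists, each towards its own genotype. At the other times 141 KO-only (9.96%) and 153 WT-only regions (10.04%) were called in 0 of 8 libraries, within the 8.74% to 10.2% of the mixed lists and above the 6.54% of all regions.

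The lists also differed in the share of their regions that had no call before LPS. Of the KO-only regions, 639 (45.1%) were called in 0 of 4 libraries at 0 h, against 523 of the WT-only regions (34.3%), 35.4% to 40.4% in the mixed lists and 17.7% of all regions. Regions absent from all 4 libraries at 0 h and present in all 4 at 6 h numbered 192 among KO only (13.6%) and 96 among WT only (6.30%). Their share was 6.74% to 11.1% in the mixed lists and 3.48% of all regions. KO-only regions thus lay above and WT-only regions below the 4 mixed lists, which was not tested. The WT-only share of 6.30% was close to the lowest mixed share of 6.74%, and regions of a list are not independent replicates. In the lists thinned to a common background the shares were 9.46% and 4.91%, with 5.80% to 7.06% in the mixed lists and 2.67% of all regions. Without KO 0 h replicate 2, the shallowest library, they were 14.6% and 6.63%, with 7.41% to 12.1% in the mixed lists. By their definition these regions were called in both genotypes at 6 h and in only one at 2 h.

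**Figure D5:**
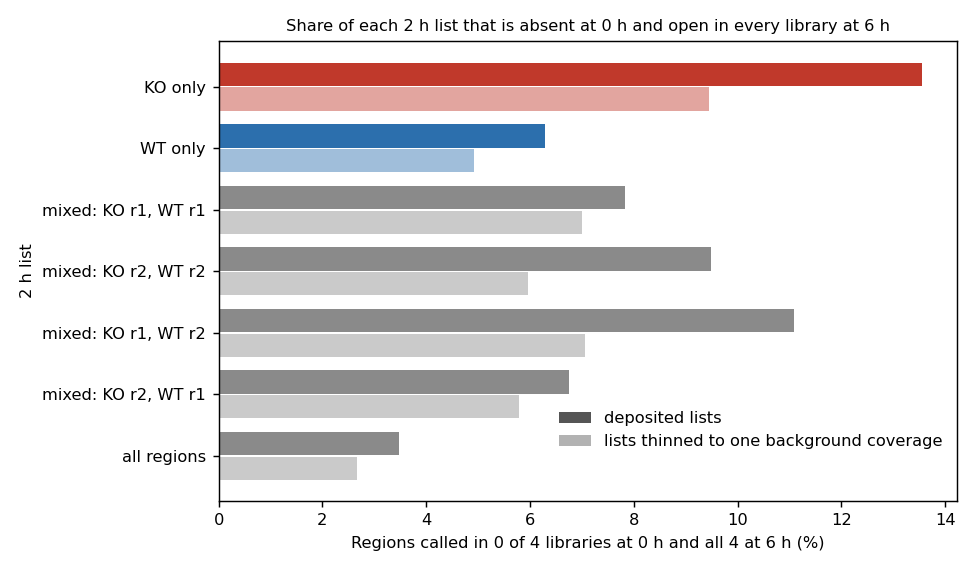
Share of each 2 h list (vertical axis) with no call at 0 h and 4 calls at 6 h (percent, horizontal axis), in the deposited lists (dark) and in lists thinned to the same background coverage (pale). KO only (red, 13.6% and 9.46%) lies above and WT only (blue, 6.30% and 4.91%) below all 4 mixed lists (grey) in both.

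The same rule was applied at the other times. At 0 h, 583 regions were KO only and 2862 WT only, or 3445 of 78579 (4.38%), above the mixed pairings at 2693 and 2687. At 6 h, 2195 were KO only and 1350 WT only, or 3545 of 102083 (3.47%), and the mixed pairings gave 3539 and 4050. The balance between the lists differed most from 2 h at 0 h, where 83.1% were WT only, but this share was 68.9% in lists thinned to the same background coverage and 55.0% in lists of equal length. The KO-only share at 6 h was 61.9%, 55.0% and 51.8% in the same order. The thinned total at 0 h was 2895, between the mixed pairings at 2955 and 2753, and that at 6 h was 3608, between 3391 and 3901. In lists of equal length the totals were above both mixed pairings, at 2519 against 2206 and 2297 at 0 h and at 3503 against 3142 and 3143 at 6 h.

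The lists of the 3 times were then overlapped. Of the KO-only regions at 2 h, 17 (1.20%) overlapped a KO-only region at 0 h and 45 (3.18%) one at 6 h, which was 2.92% and 2.05% of those lists. The mixed lists at 2 h overlapped the same KO-only lists in 0.852% to 1.92% and 3.23% to 3.84% of their regions, and all regions in 0.607% and 1.41%. Of the WT-only regions, 141 (9.25%) overlapped a WT-only region at 0 h and 36 (2.36%) one at 6 h, which was 4.93% and 2.67% of those lists. For the mixed lists these shares were 5.45% to 6.77% and 1.48% to 2.12%, and for all regions 3.10% and 0.827%. The shares of WT-only regions at 2 h that were WT only again thus lay above those of the 4 mixed lists at both times, which was not tested. For KO-only regions the share lay within the range of the mixed lists at 0 h and below it at 6 h.

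The 55656 regions called in all 4 libraries were compared by rank. In each library the regions were ranked by −log10 q, the ranks were turned into normal scores, and the scores were fitted with limma. At an adjusted p under 0.05, 0 regions (0%) ranked higher in KO and 0 (0%) in WT, and the lowest adjusted p was 0.376 (limma, Benjamini-Hochberg). At an unadjusted p under 0.05 there were 3324 regions (5.97%), 1668 higher in KO and 1656 higher in WT. Both KO libraries ranked above both WT libraries in 9898 regions (17.8%) and below in 9806 (17.6%), against 15.9%, 16.2%, 16.3% and 16.2% for the 4 orders of the mixed pairings. Fits without a library rest on 1 library in a genotype, which is assumed to vary like those of the other. They gave 13 higher in KO and 3 in WT without WT replicate 1, 2 and 3 without WT replicate 2, 0 and 6 without KO replicate 1, and 0 and 7 without KO replicate 2. With the replicate number as a block, although same-numbered libraries did not deviate together over these regions as a whole, there were 10 and 11.

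The regions with the lowest p, none of which passed in this fit, are given as values. All 6 passed with the replicate block (adjusted p 0.0155 to 0.0273, limma), and 7 of their 24 values without a library passed. On chromosome 13 at 4789661 to 4790109 the percentile among these regions was 44.2 and 56.8 in KO and 4.44 and 0.308 in WT, a difference of 2.23 ± 0.46 in normal score (SE). On chromosome 10 at 3660279 to 3660929 it was 67.7 and 66.4 in KO and 30.3 and 19.2 in WT. On chromosome 2 at 65961919 to 65963600 it was 83.6 and 84.9 in KO and 60.1 and 53.8 in WT. In these 3 regions KO was the higher genotype. WT was the higher on chromosome 1 at 12855139 to 12855784, with 84.1 and 81.0 in WT and 58.0 and 49.0 in KO. It was likewise so on chromosome 7 at 109745821 to 109746601, with 99.1 and 99.4 in WT and 95.4 and 90.1 in KO. On chromosome 14 at 69885162 to 69885940, WT stood at 97.3 and 95.2 and KO at 86.1 and 82.5, but the difference changed sign when regions were ranked by fold. The adjusted p was 0.376 for each of the 6 (limma).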

How the data were processed

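ATAC-seq peak lists of 12 libraries were used, 4 of them at 2 h. The authors called peaks per library; the submitters' processing notes name MACS2, Picard, Bowtie2 2.1.0 and the mm9 build, with settings not given in the sources used here. For each peak the deposited lists hold a score equal to 10 times the −log10 q-value, the −log10 p-value, and a fold ratio over local background. These deposited values were used within a list only. With read totals not given in the sources used here, summit and background coverage were recovered by solving fold and Poisson p for a whole-number coverage, and the result gave back the deposited −log10 p to within 0.001 for 100% of peaks. For thinning, coverage was drawn down at random to the lowest background, and a peak was kept at a −log10 p of at least 4.28. Calls have no counting interval, and a region without a call may be open below the calling limit. X chromosome peaks (7453) were left out.

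Groups followed the labels. Counts of regions have no test, because 2 libraries against 2 allow no exact p below 0.333. Peak number and covered length were put to exact two-sided permutation tests, and ranks by limma 3.58.1 in R 4.3.3, with genotype as the only term. Named regions were the 10 per list with the highest mean percentile, those that kept their genotype in at least 3 of the 4 other libraries of that genotype and 0 of the other (up to 10 per list), and the 3 per direction with the lowest p in the rank fit, since none passed 0.05. The comparison, its members and these rules were chosen with earlier results of these data known. The neighbouring regions described were chosen after their values were seen. The region counting and the rank fit were run on simulated data as a check of the code. The changed regions were given their calls directly and the simulated ranks had the same spread in every region. The check therefore does not measure how many real differences would be found. Other work used Python 3.11.15, numpy 2.4.6, pandas 2.3.3 and scipy 1.17.1. Alternatives were the threshold, the overlap rule, list length, depth, the X chromosome, chaining over 12 lists, the replicate block and leaving out libraries.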

Additional observations from a re-analysis of the deposited data

Results flagged for a closer look

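A few regions separated the genotypes at 2 h in one direction and at another time in the other, with both libraries of one genotype and neither of the other calling them each time. KO only at 2 h and WT only at 0 h were 54 regions, and WT only at 2 h and KO only at 0 h were 19. KO only at 2 h and WT only at 6 h were 28, and WT only at 2 h and KO only at 6 h were 56. The difference between the times was not tested in any of them. As shares of the 2 h lists these are 3.81%, 1.25%, 1.98% and 3.67%. All regions at 2 h overlapped the same lists in 3.10%, 0.607%, 0.827% and 1.41%. The mixed lists did so in 5.45% to 6.77%, 0.852% to 1.92%, 1.48% to 2.12% and 3.23% to 3.84%, so the share lay below the mixed lists in the first case and within their range in the others. Beside these stand the regions that kept their direction, 17 KO only and 141 WT only at 0 h, and 45 KO only and 36 WT only at 6 h.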

How the results depend on the processing

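KO-only and WT-only counts at 2 h stayed within 1.5 times their deposited values under a stricter threshold, both overlap rules, equal list length, thinning, the X chromosome and chaining over 12 lists, at 1353 to 1778 and 1445 to 1821. Thinning to the lowest background of all 12 libraries, a setting added for these counts after the data were seen, gave 1269 and 1934. Leaving out a library needs fewer calls per region and gave 2667 to 5441 KO-only and 3426 to 7073 WT-only regions. The peak number difference (KO minus WT) then ran from -3488 to 3098 and that of covered length from -2.80 to 1.46 Mb. It was positive without WT replicate 1 (3098 peaks, 1.46 Mb) and without KO replicate 1 (628 peaks, 0.0853 Mb). At 0 h, KO only were 899 when thinned and 1134 at equal length, and WT only 1385 at equal length. The share of KO-only regions absent at 0 h was 32.8% when thinned and 48.1% without KO 0 h replicate 2, an alternative added after the data were seen. That of WT-only regions was 25.7% when thinned. The shares also present in all 4 libraries at 6 h were 9.46% and 4.91% when thinned.

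With the replicate number as a block, the rank fit gave 10 regions higher in KO and 11 higher in WT at an adjusted p under 0.05, with a lowest adjusted p of 0.0155 (limma). Same-numbered libraries did not deviate together over these regions as a whole (correlation -0.00171). This value cannot show whether the libraries were prepared in pairs, since a shared deviation in some regions could leave it near this level. Leaving out libraries gave 0 to 13 higher in KO and 3 to 7 higher in WT. Ranking by fold, percentile scale, a −log10 q of at least 5 and a fit of all 12 libraries gave 0 in both directions, with lowest adjusted p of 0.833, 0.844, 0.332 and 0.0869 (limma). Ranked by fold, the difference on chromosome 14 at 69885162 turned to 0.0878 in normal score (KO minus WT). Of the 6 regions named from the rank fit, 13 values passed under an alternative, 6 with the block and 7 without a library. Of the call values of named regions, 239 were as deposited and 4 moved. These were the regions on chromosome 1 at 36146279 and 182340474 at the stricter threshold, and those on chromosome 11 at 53953874 and chromosome 19 at 46802858 when chained over 12 lists. Depth limits what a missing call says, since most separated regions lie near the calling limit.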

Other observations

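On chromosome 14, the stretch between regions called in all 4 libraries at 70032822 to 70033399 and at 70106781 to 70107656 held 6 regions at 2 h, each called in a WT library and 0 in a KO library. It was picked out after its values were seen. Of all regions, 1.73% were WT only, 6.31% were called in WT replicate 1 alone and 2.72% in WT replicate 2 alone. How often such stretches occur was not counted. One of the 6, at 70079095 to 70079442, was WT only and was called in 6 of 6 WT libraries and 0 of 6 KO libraries, at percentiles of 29.1 and 2.35 at 2 h. The others were each called in 1 WT library at 2 h. Peaks of WT replicate 2 at 70041657 to 70041948 (percentile 18.0) and of WT replicate 1 at 70041960 to 70042421 (percentile 23.4) did not overlap and were therefore counted as separate regions. At 6 h these positions lay in 1 peak in each WT library, at 56.4 and 68.8, and had no KO peak. The region at 70096909 to 70097226 was called in 1 KO library, KO 6 h replicate 2, at 18.2.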
